A study of Mus musculus with 8 samples.

Results

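Transcripts of 10 Notch pathway genes were compared between secretory and maturation stage enamel organs of the mouse. The genes were chosen by symbol and were the receptors Notch1, Notch2, Notch3 and Notch4, the ligands Jag1, Jag2 and Dll1, and the transcription factors Hes1, Hey1 and Hes5, which act downstream of the receptors. All 10 were found among the 54532 genes of the deposited count table, and 9 of them passed the filter on low counts, the exception being Hes5. The mice were C57BL/6 wt pups with no treatment, aged P5 (postnatal day 5, secretory stage) or P12 (postnatal day 12, maturation stage). First molars were dissected free of pulp tissue, the enamel organs of 5 pups were pooled for each library, and polyadenylated RNA was sequenced from 4 such pools per age. P5 pools carried the replicate numbers 1, 3, 4 and 5 and P12 pools the numbers 1, 2, 3 and 4.

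In Notch signaling a ligand on the surface of a cell binds a receptor on its neighbor, after which ADAM metalloproteases and gamma-secretase cut the receptor and its intracellular domain enters the nucleus. There it joins RBPJ and Mastermind-like coactivators and turns on genes of the Hes and Hey families, which encode transcriptional repressors. In developing teeth Notch1 is known from the stratum intermedium, the cell layer beneath the ameloblasts, and Jag2 from the inner enamel epithelium from which ameloblasts arise, while Notch3 is known from mural cells of blood vessels and Notch4 from endothelium.

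Total counts were 16963323, 19251202, 16574548 and 20262601 in P5 replicates 1, 3, 4 and 5, and 22013456, 19520437, 18036016 and 17588152 in P12 replicates 1, 2, 3 and 4. The 20 most abundant genes took 34.1% to 35.7% of the counts in P5 libraries and 16.8% to 19.0% in P12 libraries, and counts were therefore scaled by edgeR's TMM factors. A normalized count is a count divided by the effective library size and multiplied by the mean effective size, 19006280. A library floor of 3 counts corresponded to 2.20 to 3.95 normalized counts, and such floors cover counting error alone.

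A pair of libraries stood apart from the others of their age. Summed over Klk4, Amtn, Odam and Slc24a4, which mark maturation ameloblasts, P5 replicate 5 held 12681 normalized counts against 36597 to 43951 in the other P5 libraries. Summed over 7 keratinization genes of oral epithelium, P12 replicate 4 held 5835 normalized counts against 20758 to 32380.2 in the other P12 libraries. The same P12 library had the highest secretory sum at its age (Amelx, Ambn, Enam and Mmp20), 621683 normalized counts against 237041 to 433633, and also the highest maturation sum, 477588 against 354258 to 454612. Among the 9 members that passed the filter, P5 replicate 5 held the highest P5 value of 7, and P12 replicate 4 held the lowest P12 value of 6 and the highest of 2.

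The stages matched their labels, since the secretory sum was 5298983 ± 271307 (SD, n = 4) at P5 and 389159 ± 177746 at P12, and the maturation sum was 32681 ± 13729.6 at P5 and 431260.3 ± 53773 at P12. Genes known from the stratum intermedium were present at both ages, the most abundant being Alpl, tissue-nonspecific alkaline phosphatase. Their sum was 9849.9, 9238, 9879 and 11729 normalized counts in P5 replicates 1, 3, 4 and 5, and 14541, 14749, 15694 and 19440.4 in P12 replicates 1, 2, 3 and 4. Of these 4 genes Alpl and Thbd were higher and Cldn10 was lower at P12, and Psmb10 did not pass the test, so that the list did not move in a common direction. Alpl is also made by bone and odontoblast lineage cells and Thbd by endothelium, and collagen mRNA was abundant, so that the libraries held RNA from outside the enamel epithelium. In such bulk libraries a lower number of cells of a type and a lower amount of RNA per cell cannot be told apart, and the layer in which a transcript was made was not measured.

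Between P5 and P12, the ligands Jag2 and Jag1 and the receptor Notch2 fell, and Notch3, Notch4, Dll1 and Hes1 rose. Of the 9 members tested, 7 passed an adjusted p of 0.05 in the quasi-likelihood test of edgeR with Benjamini-Hochberg adjustment over 16440 genes, 4 higher and 3 lower at P12. Over all genes tested, 57.2% passed, 28.8% being higher and 28.4% lower. The normalized counts of 6 of the 9 did not overlap between the ages, against 52.5% of all genes tested. The median log2 fold change was 0.29 over the 9 members and 0.01 over all genes. With 4 called higher and 3 called lower, the members did not share a direction. Without P5 replicate 5 and P12 replicate 4, 8 of the 9 passed, the addition being Notch1, against 9776 of 16667 genes tested. These libraries held the highest P5 and the lowest P12 value of Notch1, so that leaving them out could only widen its difference.

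**Figure D1:**
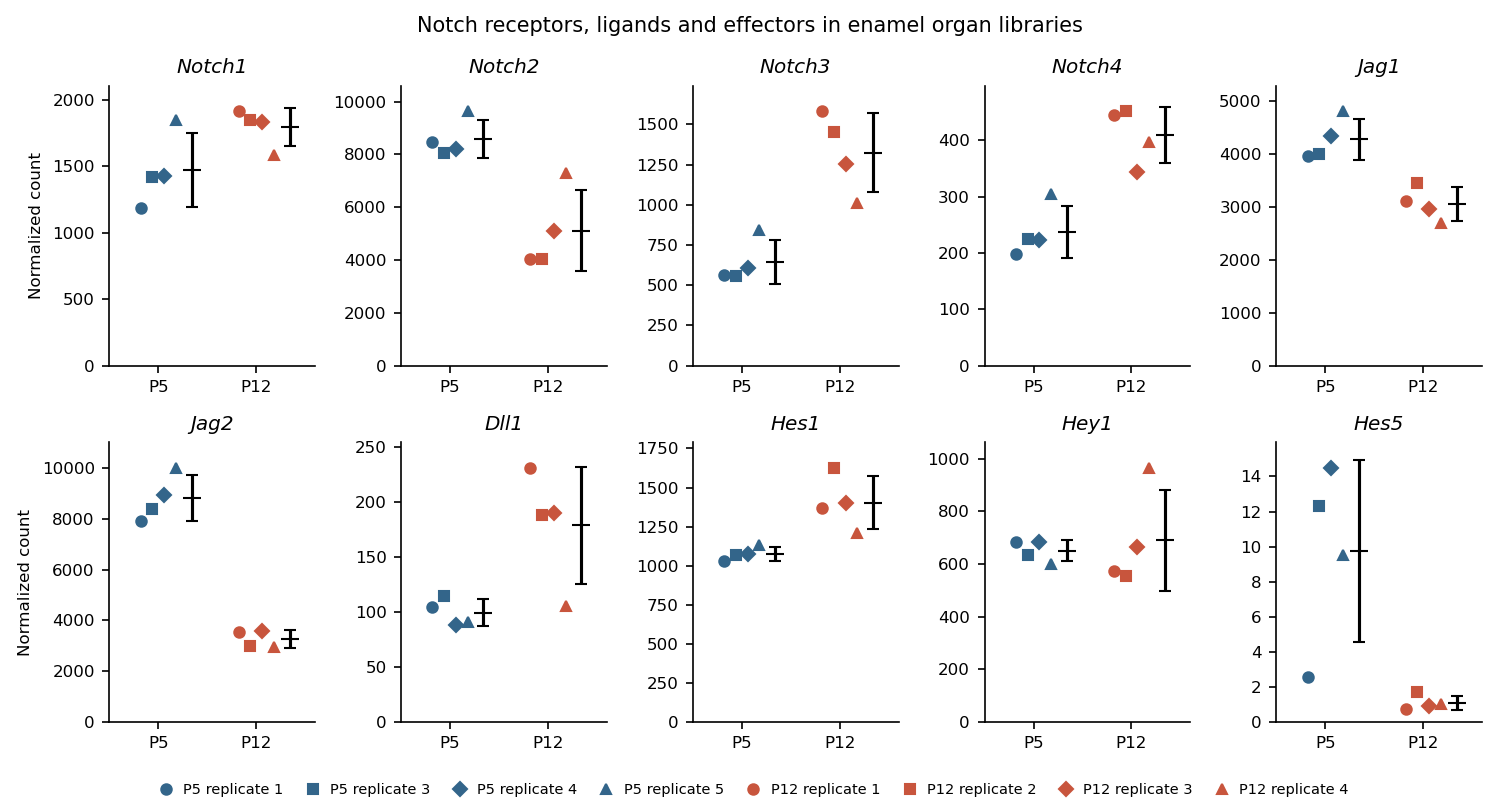
Normalized counts (vertical axes, from 0) of the 10 genes in each P5 library (blue) and P12 library (red), with a marker shape for each replicate and black bars for the mean and SD of 4 libraries. Jag2 lies at 7922 to 10014 for P5 and 2937 to 3599 for P12, whereas the ages overlap for Notch1, Dll1 and Hey1.

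Notch1 (ENSMUSG00000026923, chromosome 2 from 26457903 to 26516663, reverse strand) encodes the receptor known from the stratum intermedium. Its normalized count was 1187, 1421, 1425 and 1849 in P5 replicates 1, 3, 4 and 5, and 1911, 1849, 1829 and 1584 in P12 replicates 1, 2, 3 and 4. P5 replicate 5 reached the level of the P12 libraries, P12 replicate 4 was the lowest of its age, and the ages overlapped. The log2 fold change was 0.29 (SE 0.12, 95% interval 0.03 to 0.54), with an adjusted p of 0.057 in the quasi-likelihood test of edgeR with Benjamini-Hochberg adjustment. Without P5 replicate 5 it was 0.41 (edgeR adjusted p = 0.0032), without P12 replicate 4 it was 0.34 (adjusted p = 0.02), and over 18 alternatives the adjusted p ran from 8.1e-05 to 0.16. The side of the threshold on which Notch1 fell was thus set by these libraries and by the processing, with a positive log2 fold change in each of the 18 alternatives.

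Notch2 (ENSMUSG00000027878, chromosome 3 from 98013527 to 98150361, forward strand), a broadly expressed receptor, was the most abundant receptor at both ages on the per-kilobase scale. Its normalized count was 8463, 8069.5, 8197 and 9631 in P5 replicates 1, 3, 4 and 5, and 4044, 4045, 5099 and 7284 in P12 replicates 1, 2, 3 and 4. Every P12 library was below every P5 library, P12 replicate 4 coming closest to the P5 range. Notch2 fell by 0.75 on the log2 scale (SE 0.17), or 1.68-fold, with an adjusted p of 0.0026 in the quasi-likelihood test of edgeR with Benjamini-Hochberg adjustment. Without P12 replicate 4 the fold change was -0.97 on the log2 scale.

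Notch3 (ENSMUSG00000038146, chromosome 17 from 32120820 to 32166880, reverse strand) had a normalized count of 562, 558, 610.3 and 843 in P5 replicates 1, 3, 4 and 5, and 1581, 1452, 1253 and 1014 in P12 replicates 1, 2, 3 and 4. All P12 libraries exceeded all P5 libraries, although P5 replicate 5 and P12 replicate 4 lay nearest to each other. The rise was 2.06-fold (log2 fold change 1.04, SE 0.16, adjusted p = 1.8e-04 in the quasi-likelihood test of edgeR with Benjamini-Hochberg adjustment). Notch4 (ENSMUSG00000015468, chromosome 17 from 34564268 to 34588503, forward strand) was lower in level, with normalized counts of 198, 224, 223 and 304 in P5 replicates 1, 3, 4 and 5, and 444, 451, 344 and 396 in P12 replicates 1, 2, 3 and 4. Its ages did not overlap either, and the rise was 1.72-fold (log2 fold change 0.78, SE 0.14, edgeR adjusted p = 5.3e-04).

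Markers of vascular cells moved with these receptors. Of 7 endothelial genes 6 were higher at P12 and none lower, with no gene at 0. The highest mean count was in Cdh5 at P5 and in Kdr, the VEGF receptor gene, at P12, whereas per kilobase Cdh5 led at both ages. The endothelial sum was 2922, 2809, 2937 and 3480.2 normalized counts in P5 replicates 1, 3, 4 and 5, and 5640.3, 5346, 5331 and 5633 in P12 replicates 1, 2, 3 and 4. Of 5 mural genes 4 were higher and none lower, with Rgs5 the most abundant and no gene at 0, and their sum was 3372, 3327, 3530.1 and 3892 in P5 replicates 1, 3, 4 and 5, and 10233, 10137, 9324 and 10745 in P12 replicates 1, 2, 3 and 4. Both sums were higher in every P12 library than in every P5 library. P5 replicate 5 held the highest P5 sum of each list and the highest P5 Notch3 and Notch4, whereas P12 replicate 4 held the highest P12 mural sum and the lowest P12 Notch3. Their part in the rise of Notch3 and Notch4 was not tested.

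Relative to Cdh5, the vascular cadherin gene, Notch4 stood at a log2 ratio of -1.59 ± 0.09 in P5 libraries and -1.41 ± 0.12 in P12 libraries (SD, n = 4 each). The difference of 0.18 did not pass an exact permutation test, two-sided and over all 70 assignments of libraries to ages (p = 0.0857, or 0.103 after Benjamini-Hochberg adjustment over 6 ratios), although it did without P12 replicate 3 (0.24, exact permutation p = 0.0286, adjusted p = 0.0429, and at most 0.17 under other alternatives). Cdh5 had a log2 fold change of 0.60, and those of the 7 endothelial genes ran from 0.06 to 1.07, with 4 above and 3 below that of Notch4. Relative to Notch1 Notch3 and Notch2 shifted in opposite directions. The log2 ratio of Notch3 to Notch1 was -1.19 ± 0.12 at P5 and -0.45 ± 0.17 at P12, and that of Notch2 to Notch1 was 2.56 ± 0.19 and 1.47 ± 0.52, each without overlap between the ages (exact permutation p = 0.0286, the smallest that 4 libraries against 4 allow, adjusted p = 0.0429). Leaving out any library but P12 replicate 3 or 4 raised the adjusted p to 0.0571 for Notch3 and to between 0.0571 and 0.0857 for Notch2, at differences of 0.68 to 0.81 and -1.33 to -0.96 over all 8 libraries left out in turn. The adjusted p is taken over the 6 ratios and so also depends on the p of the others. Within P12, the Notch2 to Notch1 log2 ratio was 1.08, 1.13 and 1.48 in replicates 1, 2 and 3 and 2.20 in replicate 4.

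Expressed as shares of the 4 receptors per kilobase, Notch2 took 79.1% at P5 and 57.3% at P12. Notch3 took 7.86% ± 0.798 (SD, n = 4) at P5 and 20.7% ± 5.74 at P12, and Notch1 took 10.2% ± 1.07 and 15.7% ± 2.84. The Notch2 share was 49.3%, 50.6%, 59.1% and 70.2% in P12 replicates 1, 2, 3 and 4 and at least 76.6% in each P5 library, so that the receptor mixture was less dominated by Notch2 in all P12 libraries.

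Jag2 (ENSMUSG00000002799, chromosome 12 from 112907819 to 112929776, reverse strand) encodes the Jagged ligand known from the inner enamel epithelium and had the largest fold change of the 9 tested members. Its normalized count was 7922, 8405, 8949 and 10014 in P5 replicates 1, 3, 4 and 5, and 3524, 2993, 3599 and 2937 in P12 replicates 1, 2, 3 and 4. The P12 libraries were close to each other and all far below the P5 libraries. Jag2 fell 2.70-fold (log2 fold change -1.43, SE 0.10, 95% interval -1.65 to -1.22), with an adjusted p of 3.4e-07 in the quasi-likelihood test of edgeR with Benjamini-Hochberg adjustment. Among all 16440 tested genes 1064 had a larger fall.

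Jag1 (ENSMUSG00000027276, chromosome 2 from 137081456 to 137116644, reverse strand) encodes the other Jagged ligand, which is also made in blood vessels. It had 3959.5, 3995, 4324 and 4797 normalized counts in P5 replicates 1, 3, 4 and 5, and 3107, 3443, 2950.4 and 2693 in P12 replicates 1, 2, 3 and 4. The ages did not overlap, but the distance between them was smaller than for Jag2. The fall was 1.40-fold (log2 fold change -0.49, SE 0.09, adjusted p = 7.1e-04 in the quasi-likelihood test of edgeR with Benjamini-Hochberg adjustment). Scaling by total count in place of TMM moved the median of all log2 fold changes from 0.01 to 0.38, and Jag1 then stood at -0.11 (edgeR adjusted p = 0.35, the highest of 18 alternatives, the lowest being 4.3e-06 with DESeq2), or -0.49 relative to that median.

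The log2 ratio of Jag2 to Jag1 was 1.05 ± 0.03 (SD, n = 4) in P5 libraries, nearly the same in all of them. It was 0.18, -0.20, 0.29 and 0.13 in P12 replicates 1, 2, 3 and 4, where it scattered about 0. The P12 mean was 0.10 ± 0.21 (SD, n = 4), and the difference of -0.95 passed the exact permutation test over 70 assignments (p = 0.0286, adjusted p = 0.0429 over 6 ratios). Leaving out any library but P12 replicate 3 or 4 raised the adjusted p to 0.0571, at an exact permutation p of 0.0286 and a difference of -0.98 to -0.85. That exact p is the smallest that 4 libraries against 3 allow. The adjusted p is taken over the 6 ratios and also depends on the p of the others. This ratio is of counts, and on the per-kilobase scale Jag2 made up 62.6% ± 0.563 of the 3 ligands at P5 and 45.3% ± 3.47 at P12, while Jag1 went from 36.2% ± 0.496 to 50.6% ± 3.53.

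Dll1 (ENSMUSG00000014773, chromosome 17 from 15367354 to 15376872, reverse strand), a Delta-like ligand gene, was the scarcest of the 3 ligands on the per-kilobase scale. Its normalized count was 104, 114, 88.3 and 91.0 in P5 replicates 1, 3, 4 and 5, and 231, 188, 190 and 105 in P12 replicates 1, 2, 3 and 4. P12 replicate 4 fell within the P5 range and the other P12 libraries were well above it. Dll1 was 1.80-fold higher at P12 (log2 fold change 0.85, SE 0.22, adjusted p = 0.0057 in the quasi-likelihood test of edgeR with Benjamini-Hochberg adjustment). With 1 library left out the log2 fold change ran from 0.69 without P12 replicate 1 (edgeR adjusted p = 0.02) to 1.03 without P12 replicate 4. Of the Dll1 exonic bases, 20.5% also lie in A930024N18Rik on the opposite strand, which had 7 to 29 counts per library, and since no source used here states whether strand was used in counting, reads of both genes cannot be told apart there.

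The epithelial lists also differed between the ages and between P12 libraries. Of 5 dental epithelial genes 3 were higher and 1, Cdh1, was lower, with Krt5 the most abundant at P5 and Krt14 at P12, and their sum was 98975, 93168, 98595 and 97940 normalized counts in P5 replicates 1, 3, 4 and 5, and 302758, 328909.8, 308337 and 263986 in P12 replicates 1, 2, 3 and 4. All 7 oral epithelial genes were higher, with Krt13 the most abundant by mean at P5 and Krt10 at P12, and their sum was 1475, 1405, 1292 and 1103 in P5 replicates 1, 3, 4 and 5, and 29324, 32380.2, 20758 and 5835 in P12 replicates 1, 2, 3 and 4. The oral epithelial sum was lowest at P12 in replicate 4, as were Dll1, Notch1, Notch3, Jag1, Jag2 and Hes1, and Notch2 and Hey1 were highest there. No gene of either list was at 0 in all libraries, and the part of these cells in the changes of Jag2, Jag1, Dll1 and Notch2 was not tested.

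Hes1 (ENSMUSG00000022528, chromosome 16 from 30064384 to 30067796, forward strand), the most widely expressed Hes target, had normalized counts of 1027, 1069.9, 1077 and 1135 in P5 replicates 1, 3, 4 and 5, and 1371, 1627, 1400.2 and 1212 in P12 replicates 1, 2, 3 and 4. No P12 library was as low as any P5 library, P12 replicate 4 being nearest to them. The rise was small, 1.30-fold (log2 fold change 0.38, SE 0.08, adjusted p = 0.0025 in the quasi-likelihood test of edgeR with Benjamini-Hochberg adjustment), while the transcripts of both Jagged ligands fell.

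Hey1 (ENSMUSG00000040289, chromosome 3 from 8663359 to 8667256, reverse strand), a related repressor gene also known from endothelium, had normalized counts of 683, 636, 682 and 600.1 in P5 replicates 1, 3, 4 and 5, and 573, 554, 665 and 966 in P12 replicates 1, 2, 3 and 4. P12 replicate 4 was far above the rest, while the other P12 libraries were within or below the P5 range. The log2 fold change was 0.08 (95% interval -0.26 to 0.42), with an adjusted p of 0.67 in the quasi-likelihood test of edgeR with Benjamini-Hochberg adjustment, and without P12 replicate 4 it was -0.13 (edgeR adjusted p = 0.21). Under total count scaling it was 0.45 (edgeR adjusted p = 0.013, the lowest of 18 alternatives, the highest being 0.86), close to the median of 0.38 of all genes under that scaling. The log2 ratio of Hey1 to Hes1 was -0.73 ± 0.14 in P5 libraries and -1.05 ± 0.52 in P12 libraries (SD, n = 4 each), which did not pass (exact permutation p = 0.286, adjusted p = 0.286). Without P12 replicate 4 its difference went from -0.32 to -0.57 (exact permutation p = 0.0286, adjusted p = 0.0429, with adjusted p up to 0.54 under other alternatives).

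Hes5 (ENSMUSG00000048001, chromosome 4 from 154960923 to 154962371, forward strand) is a Notch target best known from neural progenitors. It had 2, 11, 11 and 9 counts in P5 replicates 1, 3, 4 and 5, and 1, 2, 1 and 1 counts in P12 replicates 1, 2, 3 and 4. All P12 libraries and P5 replicate 1 were below the floor of 3 counts, and the gene did not pass the filter. Summed over libraries and corrected for effective size, the 33 counts at P5 against 5 at P12 gave a P5 to P12 ratio of 9.04 (exact 95% interval 3.51 to 29.7, for counting error alone). With no filter, the quasi-likelihood test of edgeR with Benjamini-Hochberg adjustment gave a log2 fold change of -3.01 (SE 0.76, adjusted p = 0.0025), and DESeq2 gave -3.16 (adjusted p = 0.0023). The log2 ratio of Hes5 to Hes1 went from -6.84 ± 0.92 (SD, n = 4) to -9.40 ± 0.19 (SD, n = 4), and although the exact permutation p was 0.0286 (adjusted p = 0.0429), the P12 value is set by counts under the floor, the difference of -2.56 became -1.56 with a pseudocount of 5 and -2.87 with 0.5, and the adjusted p rose to between 0.0571 and 0.0857 when any library was left out. The targets thus differed, with Hes1 rising and the scarce Hes5 falling, at a depth that cannot give the size of the latter.

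Promoter windows are shown for Hes5, which holds the motif bound by RBPJ, and for Jag2 and Notch3, which had the largest fall and the largest rise among the tested members. The windows run from 250 bases before to 50 bases after the RefSeq gene start on GRCm38.p6, and 8 of the 10 genes were matched with 9 windows, Hes1 and Hey1 being without a window and not searched. The motif searched was GTGGGAA on either strand, and capitals mark its matches. Hes5 lies at chr4:154960673-154960972 on the forward strand, with first bases of a match at positions -226 and -83 from the gene start, 1 on each strand. Jag2 lies at chr12:112929446-112929745 and Notch3 at chr17:32166841-32167140, both on the reverse strand. The deposited Jag2 gene begins at 112929776, so that its whole window lies inside the gene as deposited. The same holds for the Notch1 window and for a window of Dll1. Bases before the deposited starts of Jag2 and Notch1 were not searched.
Hes5: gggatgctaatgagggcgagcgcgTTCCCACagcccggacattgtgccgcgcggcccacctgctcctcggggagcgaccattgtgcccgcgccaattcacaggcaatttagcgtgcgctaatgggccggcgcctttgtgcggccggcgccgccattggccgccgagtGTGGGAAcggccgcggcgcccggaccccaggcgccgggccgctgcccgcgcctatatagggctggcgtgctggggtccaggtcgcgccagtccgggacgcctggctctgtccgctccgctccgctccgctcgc
Jag2: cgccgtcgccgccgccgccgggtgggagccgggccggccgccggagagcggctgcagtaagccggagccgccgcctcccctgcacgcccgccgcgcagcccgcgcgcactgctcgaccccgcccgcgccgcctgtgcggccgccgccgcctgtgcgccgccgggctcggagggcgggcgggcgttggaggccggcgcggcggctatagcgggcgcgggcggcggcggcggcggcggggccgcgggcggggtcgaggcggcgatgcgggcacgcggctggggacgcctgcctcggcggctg
Notch3: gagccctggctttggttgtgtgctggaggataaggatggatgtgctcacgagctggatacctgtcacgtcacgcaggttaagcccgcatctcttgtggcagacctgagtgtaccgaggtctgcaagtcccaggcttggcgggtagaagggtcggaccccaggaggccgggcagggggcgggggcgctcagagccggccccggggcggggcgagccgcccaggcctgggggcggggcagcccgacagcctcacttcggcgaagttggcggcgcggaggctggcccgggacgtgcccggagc

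Of the 9 windows 1, that of Hes5, held the motif, and 2097 of all 32851 windows of this length did so (6.38%). The Jag2 window held 63 CpG dinucleotides, the Hes5 window 41 and the Notch3 window 25, against a median of 7 over all windows. A match describes these letters and not the binding of a factor.

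On the per-kilobase scale, which divides normalized counts by the deposited gene length and allows levels of different genes to be compared, the order of the members changed between the ages. At P5 Jag2 led with 1267 ± 129 (SD, n = 4) normalized counts per kilobase, above Notch2 with 797 ± 66.1 and Jag1 with 733 ± 66.7, whose libraries overlapped. Hes1 (529 ± 21.7) and Hey1 (199 ± 12.2) followed without overlap. Below them Notch1 (103 ± 19.4) overlapped with Notch3 (80.0 ± 16.8), Notch4 (29.4 ± 5.71) overlapped with Dll1 (23.6 ± 2.84), and Hes5 was last at 7.13 ± 3.80.

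At P12 Hes1 had the highest mean, 688 ± 83.9 normalized counts per kilobase, although Notch2 exceeded it in P12 replicate 4. Jag1 (523 ± 53.9), Notch2 (475 ± 142) and Jag2 (468 ± 49.8) came next and each overlapped with its neighbor in the order, so that the lead of Jag2 at P5 had no counterpart at P12. Hey1 (211 ± 58.4), Notch3 (165 ± 30.7) and Notch1 (126 ± 10.1) likewise overlapped in turn, as did Notch4 (50.7 ± 6.17) and Dll1 (42.3 ± 12.5), while Hes5 (0.798 ± 0.305) was under the floor. Placed among the 16440 tested genes by level per kilobase, Jag2 ranked 429 at P5 and 1562 at P12, Hes1 ranked 1376 and 977, and Notch1 ranked 6741 and 5964.

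**Figure D2:**
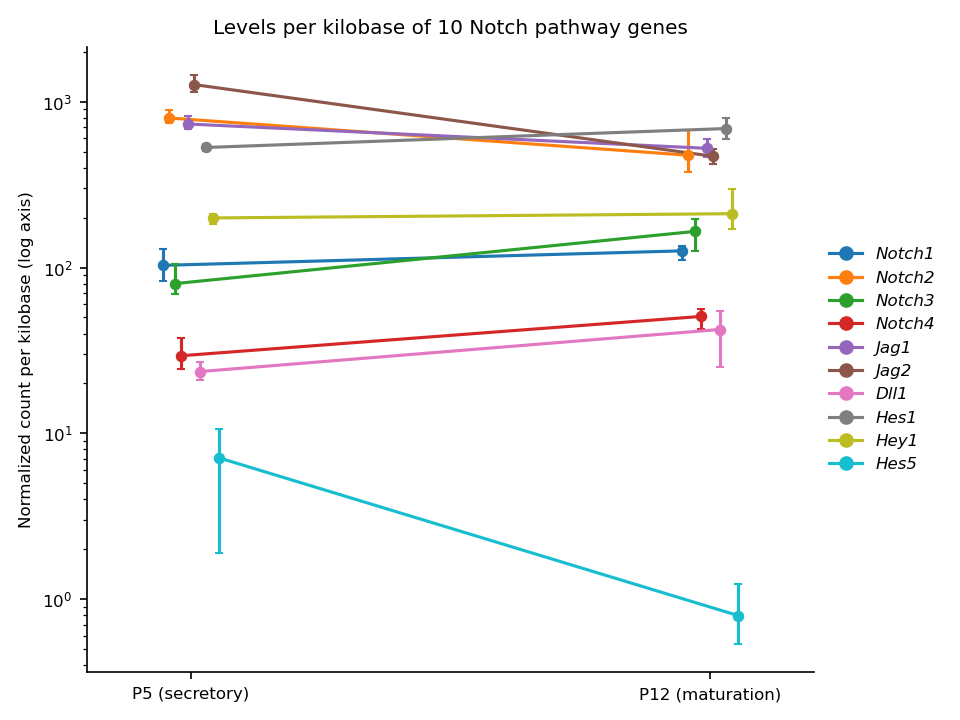
Mean normalized count per kilobase of gene length (vertical log axis) of the 10 genes at P5 and P12, with bars from the lowest to the highest of 4 libraries and a line joining the ages. Jag2 goes from 1267 to 468 and Hes1 from 529 to 688, while Hes5 lies below all others at both ages.

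A further 60 genes of the pathway were examined, of which 57 passed the filter. Of these 16 were higher and 19 lower at P12 and 22 did not pass, shares near the 28.8% higher and 28.4% lower of all genes, with a median log2 fold change of -0.04 against 0.01 over all genes. Among them Numb and Tle4 had larger log2 fold changes than any tested member.

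The largest change was in Numb, which encodes an endocytic adaptor that antagonizes Notch receptors. Its normalized count was 21708, 22419, 21959.9 and 23731 in P5 replicates 1, 3, 4 and 5, and 1636, 1497, 1797 and 1397 in P12 replicates 1, 2, 3 and 4. The ages were far apart and the libraries of each age close together. Numb fell 14.2-fold (log2 fold change -3.83, SE 0.10, adjusted p = 3.2e-10 in the quasi-likelihood test of edgeR with Benjamini-Hochberg adjustment), from rank 76 to rank 1893 of 16440 genes by level per kilobase, and 123 tested genes had a larger fall. Of the 9 genes that regulate receptor turnover, 3 were higher and 4 lower. The related Numbl fell 1.43-fold (log2 fold change -0.52), Dtx1, a Deltex ubiquitin ligase gene, fell 2.19-fold (-1.13), and its relative Dtx3l rose 2.37-fold (1.25), each with an edgeR adjusted p of at most 0.0027. Part of the Dtx3l exons also lies in Parp9 on the opposite strand, which had 42 to 314 counts per library.

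Of 10 genes for receptor cleavage 2 were higher and 4 lower. Adam10, the metalloprotease that makes the ligand-dependent cut, had 4658 to 5041 normalized counts in P5 libraries and 1774 to 2101 in P12 libraries, a 2.52-fold fall without overlap (log2 fold change -1.34, SE 0.07, adjusted p = 4.1e-08 in the quasi-likelihood test of edgeR with Benjamini-Hochberg adjustment). Aph1b, which encodes a subunit of gamma-secretase, fell 1.78-fold (log2 fold change -0.83), while Furin, whose protein cleaves the receptor precursor and whose count was the highest of the group at P12 but below that of Adam10 at P5, rose 1.30-fold (0.38). The edgeR adjusted p was at most 0.0025 for both.

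Of 4 ubiquitin ligase genes for ligand endocytosis, Mib1, with the highest count, fell by 0.47 on the log2 scale. Mib2 fell by 0.60 and Neurl1a by 0.95 (edgeR adjusted p at most 0.0032 for these falls). The Neurl1a call was lost over 6 libraries with a block on replicate number (-0.79, edgeR adjusted p = 0.058, against 0.031 without the block). Neurl1b was 0.53 higher (edgeR adjusted p = 0.048). The Neurl1b call was lost when any library other than P5 replicate 5 and P12 replicate 4 was left out, with an edgeR adjusted p up to 0.13. Of 6 glycosylation genes 3 were higher and none lower by edgeR's test, namely Lfng (log2 fold change 0.65) and Mfng (0.58), Fringe glycosyltransferase genes, and Eogt (0.57), with edgeR adjusted p of at most 0.0067, although P12 replicate 4 held 513 normalized counts of Lfng against 760.2 to 795 in the other P12 libraries. The largest edgeR adjusted p of Lfng, Mfng and Eogt over 18 alternatives was 0.026.

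In the nuclear complex of 9 genes, 3 were higher and 1 lower. Rbpj, the DNA-binding partner, had 814 to 881 normalized counts at P5 and 779 to 872 at P12 (log2 fold change -0.04, 95% interval -0.18 to 0.10, edgeR adjusted p = 0.59). Ep300, with the highest count of the group but below Kat2b and Kat2a per kilobase, stood at -0.09 (edgeR adjusted p = 0.27). The coactivator genes Maml2 (0.60), Maml3 (0.30) and Snw1 (0.32) were higher and Crebbp (-0.51) was lower on the log2 scale, with edgeR adjusted p of at most 0.0058, and 44.2% of the exonic bases of Snw1 also lie in Slirp on the opposite strand, which had 26 to 40 counts per library. Of 11 corepressor genes 2 were higher and 5 lower. Tle4, a Groucho corepressor gene, had 1371 to 1561 normalized counts at P5 and 218 to 384 at P12, a 5.39-fold fall without overlap (log2 fold change -2.43, SE 0.16, adjusted p = 2.4e-07 in the quasi-likelihood test of edgeR with Benjamini-Hochberg adjustment), while its relative Tle1 rose by 0.63 log2 units and Ctbp2 by 0.47 (edgeR adjusted p at most 0.0013). Of the Ctbp2 exonic bases, 5.05% also lie in Fgfr2 on the same strand, which had 2111 to 4739 counts per library. Spen fell by 0.41 and Ncor1, the corepressor gene with the highest count, fell by 0.32 on the log2 scale (edgeR adjusted p = 0.0014 for both).

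Among other ligands 3 of 4 were tested. Dll4, the endothelial Delta gene and the most abundant of them, stood at a log2 fold change of -0.11 (edgeR adjusted p = 0.28), Dlk2, whose exons partly lie in Abcc10 on the opposite strand (382 to 669 counts per library), was 0.77 higher (edgeR adjusted p = 0.015) and Dlk1 was 0.64 lower on the log2 scale (edgeR adjusted p = 0.028). The Dlk1 call was lost without P5 replicate 1, 4 or 5 or without P12 replicate 3 (edgeR adjusted p = 0.07, 0.076, 0.065 and 0.082, and at most 0.34 over 18 alternatives). Dll3 had 4, 3, 8 and 6 counts in P5 replicates 1, 3, 4 and 5 and 0 in all P12 libraries, which is near the floor of 3 counts. Of 7 other targets 5 were tested. Hes6, which counteracts Hes1, was the most abundant at P12 and rose 2.06-fold (log2 fold change 1.04, SE 0.11, adjusted p = 8.8e-06 in the quasi-likelihood test of edgeR with Benjamini-Hochberg adjustment), and Heyl fell by 0.52 on the log2 scale (edgeR adjusted p = 0.012). The Heyl call was lost without P5 replicate 5 and P12 replicate 4 together (log2 fold change -0.35, edgeR adjusted p = 0.053, and at most 0.46 over 18 alternatives). Hey2, Hes7 and Nrarp did not pass in the main test. Without P5 replicate 5 and P12 replicate 4, 2 of the 5 tested targets were higher and 0 lower. Of the 16667 genes tested without them, 4921 were higher and 4855 lower. Nrarp had 58.2 normalized counts in P12 replicate 4 against 183 to 273 in the other P12 libraries.

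**Figure D3:**
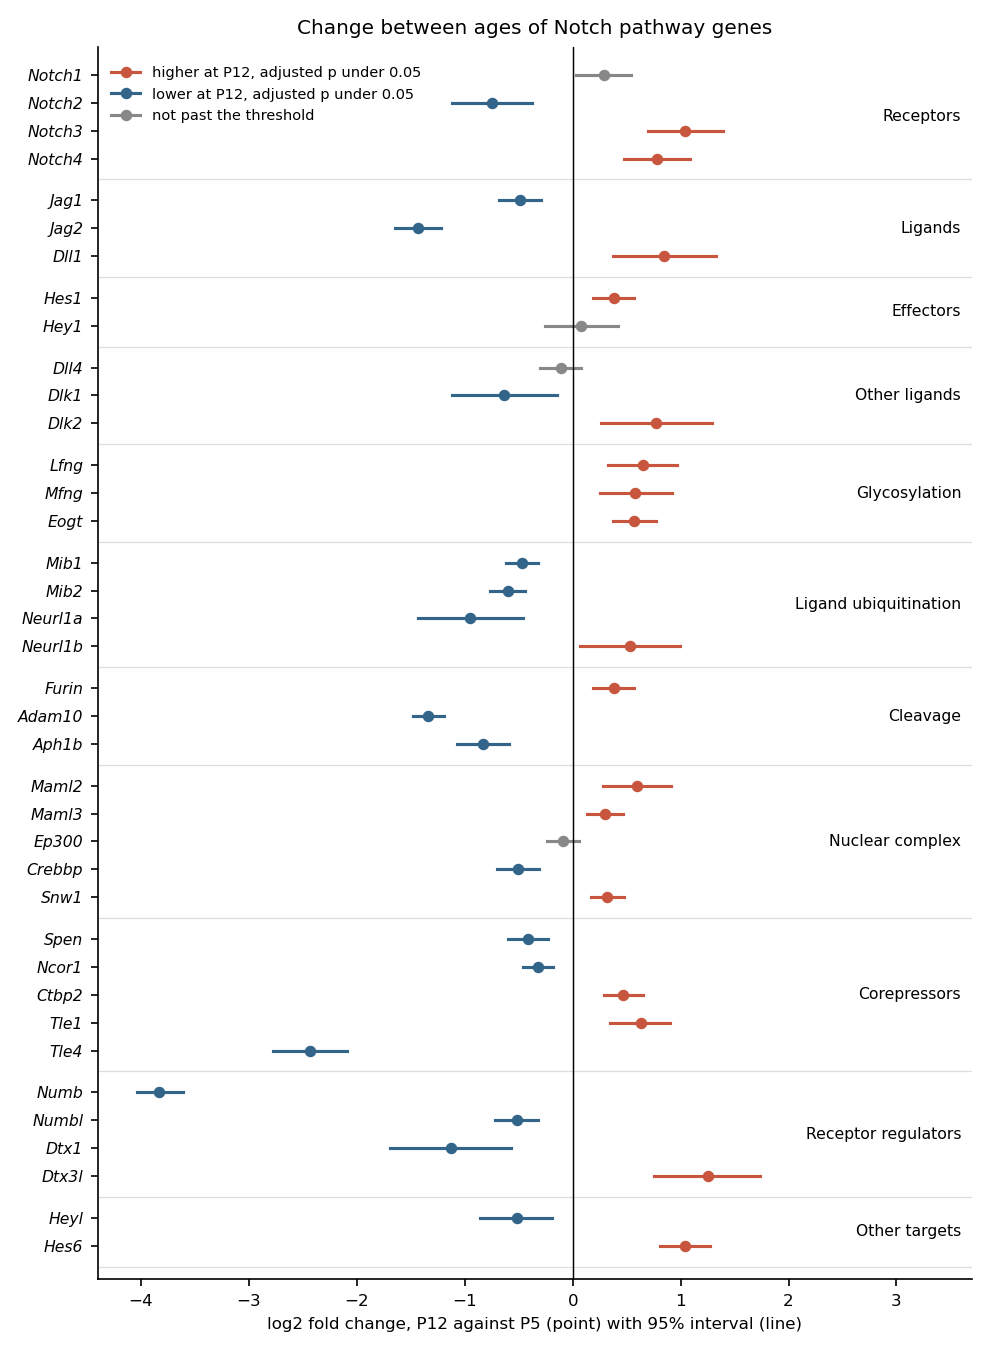
Log2 fold change of P12 against P5 from edgeR (horizontal axis) for 9 members and the named further pathway genes, grouped by role, with lines for the 95% interval. Red marks genes higher and blue genes lower at P12 at an adjusted p under 0.05, and grey the rest, with Numb at -3.83 and Tle4 at -2.43 farthest from 0; under total count scaling Dll4, Ep300 and Ncor1 change sign.

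Because total count scaling moved the median of all genes to 0.38, directions of small changes depended on it. Under it the log2 fold change of Ncor1 was 0.05, of Dll4 0.26 and of Ep300 0.28, the last pair passing as higher (edgeR adjusted p = 0.031 for Dll4, at most 0.54 over 18 alternatives, and 0.0039 for Ep300, at most 0.55), and the falls of Ncor1, Dlk1, Mib1, Crebbp, Spen, Numbl and Heyl no longer passed the edgeR test. Numb at -3.45, Tle4 at -2.06, Jag2 at -1.06 and Adam10 at -0.96 did.

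Further cell types differed between the ages as well. Of 4 leukocyte genes 3 were higher and none lower, with Lyz2 the most abundant, and their sum was 1504, 1048, 1103 and 1027 normalized counts in P5 replicates 1, 3, 4 and 5, and 2049, 2052, 1722 and 1662 in P12 replicates 1, 2, 3 and 4. All 3 tested osteoclast genes were higher, with Ctsk the most abundant, and the list summed to 1233 ± 293 (SD, n = 4) at P5 and 5552 ± 2015 at P12. Of 4 Schwann cell genes 3 were higher and none lower, with the highest count in Mbp and sums of 595 ± 99.0 and 1205 ± 174. All 3 muscle genes, led by Acta1, were lower, with sums of 606 ± 178 and 269 ± 33.8. Of 5 mesenchymal and odontoblast genes 2 were lower and none higher, or 1 lower and 1 higher without P5 replicate 5 and P12 replicate 4, the most abundant, Col1a1, did not pass, and the list had sums of 1152389.9 ± 89641 and 954121 ± 88032. No marker of these lists was at 0 in all libraries, and their part in the members' changes was not tested.

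**Figure D4:**
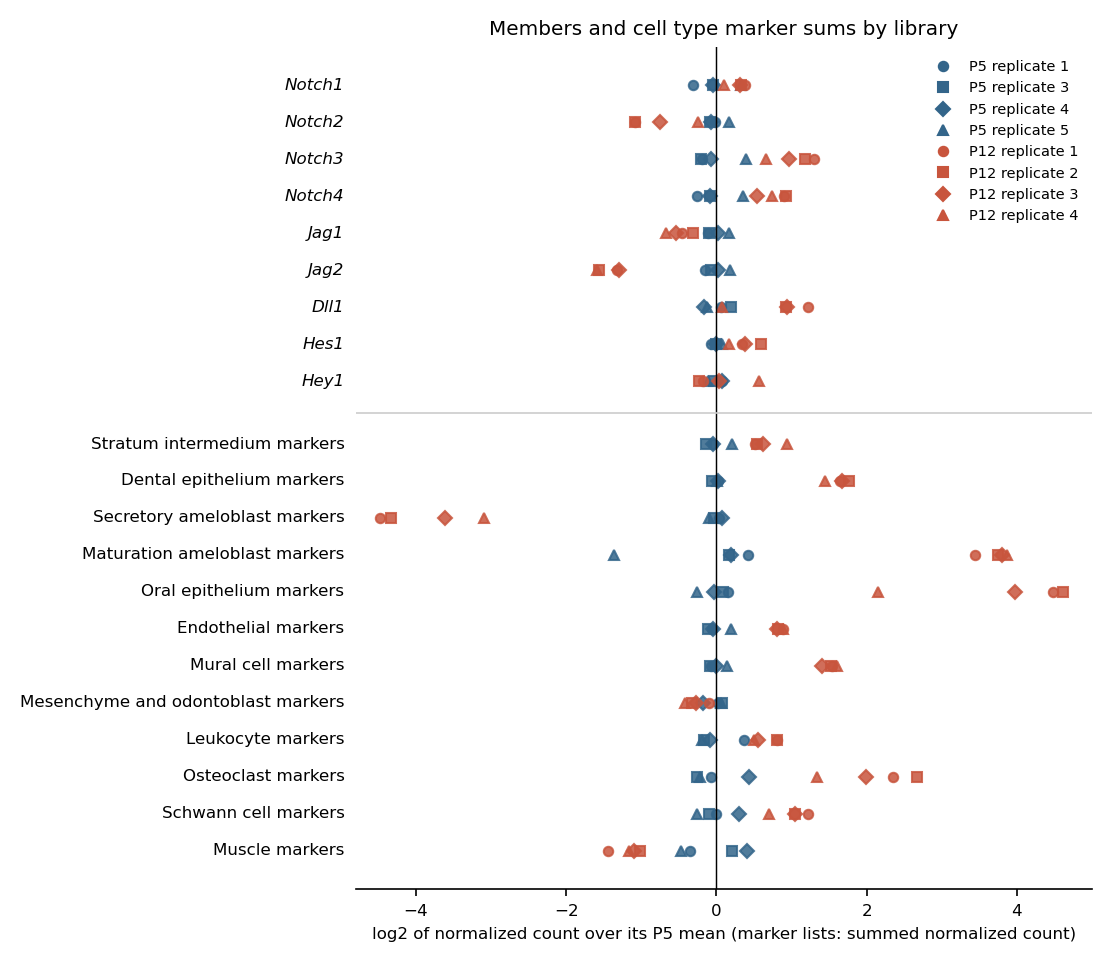
Log2 of the normalized count over its P5 mean (horizontal axis) in each library, for 9 members and, below the line, for the summed markers of 12 cell types, with P5 libraries in blue, P12 libraries in red and a marker shape for each replicate. Triangles show P5 replicate 5, with a maturation sum of 12681, and P12 replicate 4, with an oral epithelial sum of 5835, apart from the other libraries of their age.

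The genes most like 3 of the members over the 8 libraries were sought among 11336 genes with a mean normalized count of at least 100, by Pearson correlation of log2 normalized counts, as a description of libraries that share their age and depth. For Jag2 they were Tulp2 (r = 0.999), Hunk (0.998) and AI837181 (0.998), which went from 550.4 to 134, from 1853 to 199.9 and from 909 to 652 normalized counts. For Notch1 they were Gemin5 (r = 0.982), Thnsl1 (0.982) and Fitm2 (0.964), with log2 fold changes of 0.20, 0.47 and 0.24. For Hes1 they were Dctpp1 (r = 0.984), Sox18 (0.981), a transcription factor gene of endothelium, and Reep4 (0.981), and Sox18 went from 194 ± 17.4 (SD, n = 4) to 307 ± 46.7 normalized counts.

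Reads in exonic bases shared with other genes were not counted apart. In GENCODE release M21, 9.76% of the exonic bases of Notch1 and 6.03% of Notch3 lie in genes on the opposite strand with at most 30 and 11 counts per library, 5.02% of Notch2 in Gm42820 on the same strand with 10 to 53 counts, and 31.8% of Hes5 in Gm20421 with 0 counts. Notch4, Jag1, Jag2, Hes1 and Hey1 shared none. For Numb the share was 4.24%, with a partner of 5 to 14 counts, and Adam10 and Tle4 shared none.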

How the data were processed

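Polyadenylated RNA of 8 enamel organ pools was sequenced, and the authors deposited an unnormalized table of the reads counted for each gene, in whole numbers, with gene names, lengths and coordinates. The submitters' processing notes name CASAVA and mm39, whereas 53585 of the 54495 gene identifiers found in GENCODE M21 have the GRCm38 coordinates of that release, and coordinates are given as deposited. The aligner, the counting program and its use of strand are not given in the sources used here.

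The ages were compared over 16440 genes by edgeR 4.0.16 (R 4.3.3), using filterByExpr, TMM, glmQLFit and glmQLFTest without covariates, Benjamini-Hochberg adjustment and a threshold of 0.05. These fits were also tested on simulated data. The p-values measure the spread between pools. Ratios of normalized counts (log2, pseudocount 1) were compared by two-sided exact permutation over 70 assignments, adjusted over 6 ratios. Alternatives were DESeq2 1.42.0, limma-voom (limma 3.58.1), other scalings and filters, libraries left out, a replicate block, stricter thresholds and pseudocounts of 0.5 and 5. No library duplicated another of its age, since each pair exceeded counting noise (chi-square over its degrees of freedom 4.76 to 74.55). Intervals and floors cover counting error only where so stated. Promoter windows are from RefSeq.

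All 10 members are described. Of each pathway list, up to 4 called genes with the largest absolute log2 fold change and the gene with the highest count are named. The most abundant gene of a list is the one with the highest normalized count, not divided by gene length unless per kilobase is stated. Rbpj, Hey2, Hes7, Nrarp, Dll3 and the markers Thbd, Cldn10, Psmb10 and Cdh1 fall outside this rule and were added after their values were seen, and 1 gene that the rule names is not reported here. The members and lists were chosen with earlier results of these data known. Computations used numpy 2.4.6, pandas 2.3.3 and scipy 1.17.1, and plots matplotlib 3.10.9.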

Additional observations from a re-analysis of the deposited data

Results flagged for a closer look

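In 4 of 114 groups of 4 libraries examined, a library lay far from the other 3 by the gap to its nearest neighbor over the whole range. Chance gives this in about 1 of 20 groups. P5 replicate 3 had 96.1 normalized counts of Dlk1, against 159.8 to 169 in the other P5 libraries. P12 replicate 4 had 513 of Lfng, against 760.2 to 795, and 399 of Maml2, against 261 to 273 in the other P12 libraries. P5 replicate 1 had a leukocyte marker sum of 1504 normalized counts, against 1027 to 1103 in the other P5 libraries. None of the 10 members or 6 ratios had such a library at either age.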

How the results depend on the processing

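Of 162 values of the 9 tested members under 18 alternatives each, 150 had the main direction and side of the threshold. Notch2, Notch3, Notch4, Jag2, Dll1 and Hes1 had them in all 18. Notch1 passed with limma-voom (log2 fold change 0.30), total count scaling (0.66), no filter (0.31), without both P5 replicate 5 and P12 replicate 4 (0.47) and over the 6 libraries with a replicate number found at both ages (0.40), and ran from 0.19 to 0.41 with 1 library left out. Jag1 did not pass under total count scaling (-0.11) and Hey1 did (0.45). Hey1 was -0.16 without both libraries and -0.13 to 0.17 with 1 left out. Hes5 did not pass the main filter and has values with no filter and with DESeq2 alone.

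Of all 10 members, the number called was 7 to 9, with Hes5 among those called with no filter and with DESeq2. In the main test 7 members and 9411 of 16440 genes were called. Where log2 fold changes had also to reach 1 in size, 2 members and 3541 of 16440 genes passed. The numbers were 8 members and 9964 of 23340 genes with DESeq2, and 9 members and 10016 of 31604 genes with no filter. With total count scaling they were 8 members and 11215 of 16440 genes. Total count scaling gave 8885 genes higher and 2330 lower, against 4735 and 4676. Under it 3 of the further pathway genes named changed sign, Dll4 (0.26), Ep300 (0.28) and Ncor1 (0.05).

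With 1 library left out, the 4 ratios that had passed mostly missed the threshold after adjustment over 6 ratios, at an exact permutation p of 0.0286 or 0.0571, the differences being -1.01 to -0.85 for Jag2 to Jag1, -1.33 to -0.96 for Notch2 to Notch1, 0.68 to 0.81 for Notch3 to Notch1 and -3.00 to -2.32 for Hes5 to Hes1. An exact p of 0.0286 is the smallest that 4 libraries against 3 allow. The adjusted p of a ratio also depends on the p of the others. Hey1 to Hes1 (-0.57 to -0.16) and Notch4 to Cdh5 (0.14 to 0.24) each passed once, without P12 replicate 4 and P12 replicate 3. With levels not divided by length, 11 of 20 ranks were the same. Causes not given by the alternative itself were not tested.

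The replicate numbers did not pair the libraries (correlations of deviations 0.043, 0.003 and -0.036). With the replicate block 7710 genes were called over 6 libraries, against 8117 without it. Notch1 was 0.40 with the block and without it. Neurl1a lost its call with the block (-0.79, adjusted p = 0.058, against 0.031 without), Heyl and Neurl1b with it and without it (adjusted p = 0.054 and 0.074 for Heyl, 0.077 and 0.05 for Neurl1b), and Dlk1 without it (0.072) and not with it (0.028).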
